A study of Mus musculus with 10 samples.

Results

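The nuclear genes of the mitochondrial respiratory chain were examined in Th22 cells, CD4+ T cells that make IL-22, of mice with both copies or 1 copy of Riok2, which encodes a kinase of ribosome assembly. Members were taken by gene symbol alone: symbols beginning with Nduf followed by a, b, c, s or v for complex I, the 4 Sdh genes for complex II, Uqcr for complex III, Cox4 to Cox8 for complex IV and Atp5 for complex V. The rule found 92 of the 23393 genes in the table, of which 38 fall to complex I, 4 to complex II, 8 to complex III, 18 to complex IV, 17 to complex V and 7 to the Ndufaf assembly factors of complex I. Both groups were C57BL/6 mice aged 10 weeks that carried 1 Vav1cre allele, which drives Cre in the blood lineage, and 1 Il22tdtomato reporter allele. WT mice (5 libraries) were Riok2+/+ and Riok2hKO mice (5 libraries) were Riok2f/+, so that the controls also expressed Cre. Naive splenic CD4+ T cells were cultured on anti-CD3e and anti-CD28 with IL-6 (30 ng/mL), both IL-23 and IL-1b (20 ng/mL each), FICZ (400 nM), anti-IL-4 and anti-IFN-g, and 5000 reporter-positive cells per library were sorted for RNA sequencing.

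The respiratory chain passes electrons from NADH (at complex I) and succinate (at complex II) through coenzyme Q, complex III, cytochrome c and complex IV to oxygen. Complexes I, III and IV pump protons out of the mitochondrial matrix, and complex V, the ATP synthase, lets them back to make ATP. All complexes but complex II are built from products of both genomes. None of the 13 mitochondrially encoded subunits listed was found by symbol among the deposited values, and they were not analysed here. Activated T cells use respiration beside glycolysis while they divide and make cytokines.

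Promoter sequences are shown for the genes with the smallest p of 4 complexes, because the best known regulators of these genes, NRF1, the ETS factor GABPA and YY1, bind close to transcription starts. Each runs 5′ to 3′ on the gene's own strand, from 250 bases before to 50 bases after the start (RefSeq, GRCm38.p6, the mm10 assembly). Ndufs8 lies at chr19:3912725-3913024 on the minus strand, Sdha at chr13:74350191-74350490 on the minus strand, Uqcrc1 at chr9:108936398-108936697 on the plus strand and Atp5g1 at chr11:96075582-96075881 on the minus strand. The start used for Atp5g1 lies inside the gene span given below, and the other starts lie at the end of theirs. Capitals mark matches to an NRF1 motif (GCGC, any 2 bases, then GCGC), an ETS motif (CCGGAAG) or a YY1 motif (AANATGGC, with N for any base), searched on both strands. No pair of matches overlapped in these windows.
Ndufs8: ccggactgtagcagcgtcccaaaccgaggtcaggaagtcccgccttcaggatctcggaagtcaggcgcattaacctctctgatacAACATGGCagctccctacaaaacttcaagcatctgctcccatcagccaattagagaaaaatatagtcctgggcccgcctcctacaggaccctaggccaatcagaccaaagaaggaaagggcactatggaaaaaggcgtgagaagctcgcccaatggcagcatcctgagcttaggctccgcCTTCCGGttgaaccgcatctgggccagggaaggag
Sdha: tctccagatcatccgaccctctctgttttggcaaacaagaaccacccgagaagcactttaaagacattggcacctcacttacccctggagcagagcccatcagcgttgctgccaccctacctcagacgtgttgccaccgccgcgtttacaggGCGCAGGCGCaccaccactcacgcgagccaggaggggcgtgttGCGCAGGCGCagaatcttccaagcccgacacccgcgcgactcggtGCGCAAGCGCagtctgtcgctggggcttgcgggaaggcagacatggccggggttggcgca
Uqcrc1: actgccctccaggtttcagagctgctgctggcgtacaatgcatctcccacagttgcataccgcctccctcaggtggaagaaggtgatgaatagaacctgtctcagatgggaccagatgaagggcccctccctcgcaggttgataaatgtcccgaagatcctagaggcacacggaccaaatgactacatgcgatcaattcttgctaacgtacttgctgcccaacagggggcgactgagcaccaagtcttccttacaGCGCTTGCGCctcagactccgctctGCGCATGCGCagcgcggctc
Atp5g1: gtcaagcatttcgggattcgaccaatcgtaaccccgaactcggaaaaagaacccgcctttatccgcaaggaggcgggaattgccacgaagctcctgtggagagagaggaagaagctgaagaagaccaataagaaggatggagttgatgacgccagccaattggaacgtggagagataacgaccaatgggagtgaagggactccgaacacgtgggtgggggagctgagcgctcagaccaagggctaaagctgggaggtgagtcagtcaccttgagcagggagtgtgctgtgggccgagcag

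The Sdha window held 3 NRF1 matches and the Uqcrc1 window 2, the Ndufs8 window held 1 YY1 match and 1 ETS match, and these letters were not found in the Atp5g1 window. Among the 73 members with a promoter entry, 28.8% held the NRF1 motif, 23.3% the ETS motif and 23.3% the YY1 motif. The shares among the 7753 tested genes with an entry were 16.5%, 23.1% and 11.2%, and 7%, 9.93% and 6.96% among all 27025 genes with an entry. The NRF1 motif was in 6 of 13 complex V promoters and 1 of 13 complex IV promoters, and the YY1 motif in 12 of 33 complex I promoters. Of the 8 members with an entry that were lower in Riok2hKO by the test below, 3 held the NRF1 motif, 1 the ETS motif and 3 the YY1 motif, against 18, 16 and 14 of 63 that did not pass. A match is a description of these letters and not evidence of binding.

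Between 13948 and 14695 genes had a TPM (a length-normalized share of all transcripts) above 0, and pairs of libraries correlated at a Pearson's r of 0.983 to 0.996 on the log2 scale, taken across genes. Riok2 itself measured 28.3 ± 1.57 TPM (mean ± SD, n = 5, as below) in WT and 13.6 ± 1.71 in Riok2hKO, 48.3% of the WT level (limma adjusted p = 7.77e-06). WT replicate 1 stood apart, with the lowest mean r to its group (0.991 against at least 0.9934 in the other WT libraries). Of the 83 members with a mean of at least 10 TPM, 32 had their highest value in that library and 3 their lowest. All 7 of the 8 CD4 T cell markers found in the table were at 1 TPM or more, and 5 of them differed between genotypes (limma adjusted p of at most 0.00427). Il22 rose from 59.2 ± 12.6 to 316 ± 33.8 TPM and Cd28 from 89.5 ± 3.72 to 111 ± 4.92. Cd3d fell from 319 ± 2.65 to 278 ± 5.56 TPM, Cd3g from 308 ± 16.8 to 266 ± 9.87 and Lck from 551 ± 8.72 to 503 ± 10.5. The myeloid and NK markers each summed to at most 0.32 TPM and the erythroid markers to at most 1.05. Cd8a and Cd8b1 summed to 17.5 to 19.6 TPM in WT and 11.5 to 14.8 in Riok2hKO. Nearly all of this was Cd8b1, at 17.1 to 19.4 TPM in WT and 11.3 to 14.6 in Riok2hKO. Cd8a was at most 0.48 TPM in any library. The 4 B cell markers summed to 1.67 to 2.97 and 1.16 to 2.35 TPM, of which Cd79b gave 1.42 to 2.84 and 0.87 to 1.92. The part of these markers and cells in the results was not tested. In such bulk samples, fewer cells of a type and less RNA per cell cannot be told apart.

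Respiratory chain genes were among the abundant transcripts of these cells, and together they held 3.49% to 3.72% of all TPM in each library. Atp5b, the catalytic beta subunit of the ATP synthase, was the highest, at 2027 ± 47.6 TPM in WT. Cox4i1 (1391 ± 23.7), Cox8a (1137 ± 20.5) and Ndufa4 (1087 ± 47.5) came next, and the SDs of Cox8a and Ndufa4 overlap. Ndufa4 is counted here with complex I by its symbol, though its product is now known as a subunit of complex IV. The Ndufaf factors, which help to assemble complex I and are not part of it, were lower, from 15.7 ± 1.54 TPM for Ndufaf5 to 77.1 ± 7.11 for Ndufaf2 in WT.

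**Figure D1:**
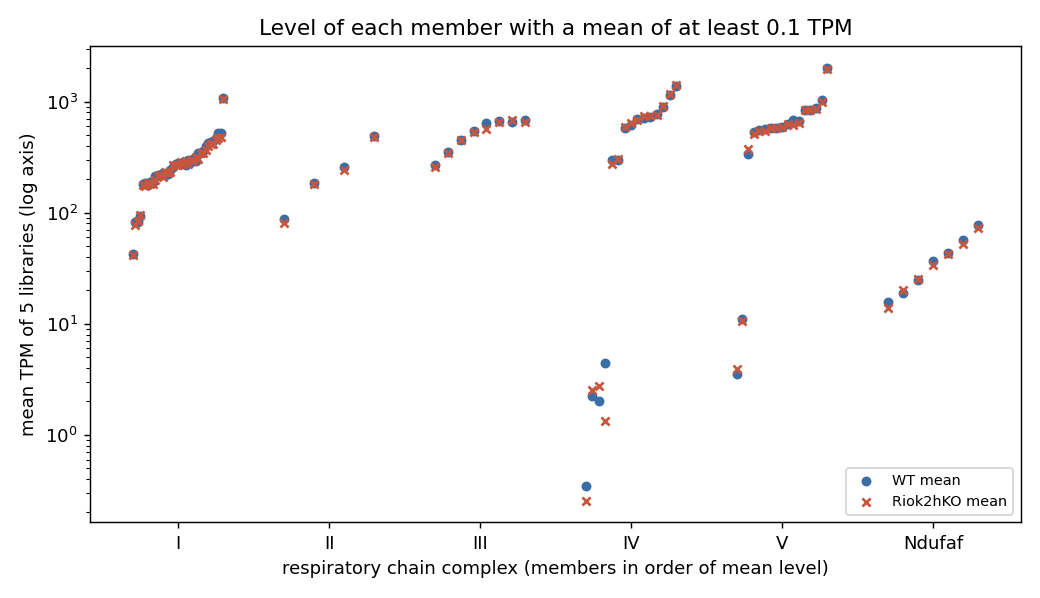
Mean TPM of each respiratory chain gene (log axis) by complex, for members with a mean of at least 0.1 TPM. Circles are means of 5 WT libraries and crosses means of 5 Riok2hKO libraries, with members in order of level. Most members of complexes I to V lie between 100 and 2027 TPM with circle and cross nearly on top of each other, and the low points of complex IV are isoforms of other tissues.

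The isoforms known from other tissues were low or listed at 0. Cox7b2, Cox8b and Cox8c were listed at 0 in all 10 libraries, Cox4i2, a lung isoform, reached at most 0.63 TPM, and Ndufa4l2 at most 0.18. These 5 genes did not pass the filter of at least 1 TPM in at least 5 libraries, which left 87 members for the test. Cox6a2, Cox6b2 and Cox7a1 passed it at 0.9 to 5.79 TPM.

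Of the 87 tested members, 9 fell in Riok2hKO, none rose and 78 did not pass (limma, adjusted p under 0.05 over all 10332 tested genes). The shares of all tested genes were 7.55% fallen and 9.58% risen, so the 10.3% of members that fell lie near the background. Before adjustment 29 of the 87 members had a p under 0.05, as had 3210 of all 10332 tested genes. Abundant genes were called more often as falls but not as rises. Among those averaging 100 TPM or more, a limit chosen after the values were seen, 18.1% fell and 8.36% rose. Of the 70 members that reach this limit, 8 (11.4%) fell and none rose, a difference that was not tested. An unadjusted p under 0.05 was found for 664 of the 1531 genes at this level and 25 of the 70 members. In absolute size, the members' log2 fold changes had a median of 0.0536, where genes at 100 TPM or more had 0.0631 and the whole set of tested genes 0.0925. Of the 87 members 66 were within 0.1 of 0, as were 1063 of the 1531 genes at 100 TPM or more and 5483 of all 10332. The median log2 fold change of the members was -0.0295, while that of every tested gene was -0.006 and that of genes at 100 TPM or more -0.0281. Without WT replicate 1 the median of the members was -0.0139. Between libraries of a group, the median log2 deviation of the members from their gene means had an SD of 0.024. With single libraries left out, 6 (without WT replicate 1 or Riok2hKO replicate 3) to 11 (without WT replicate 5) members fell. The complex I genes Ndufb3 and Ndufc2 rose without WT replicate 1, and Ndufc2 and Ndufv3 rose without Riok2hKO replicate 5.

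**Figure D2:**
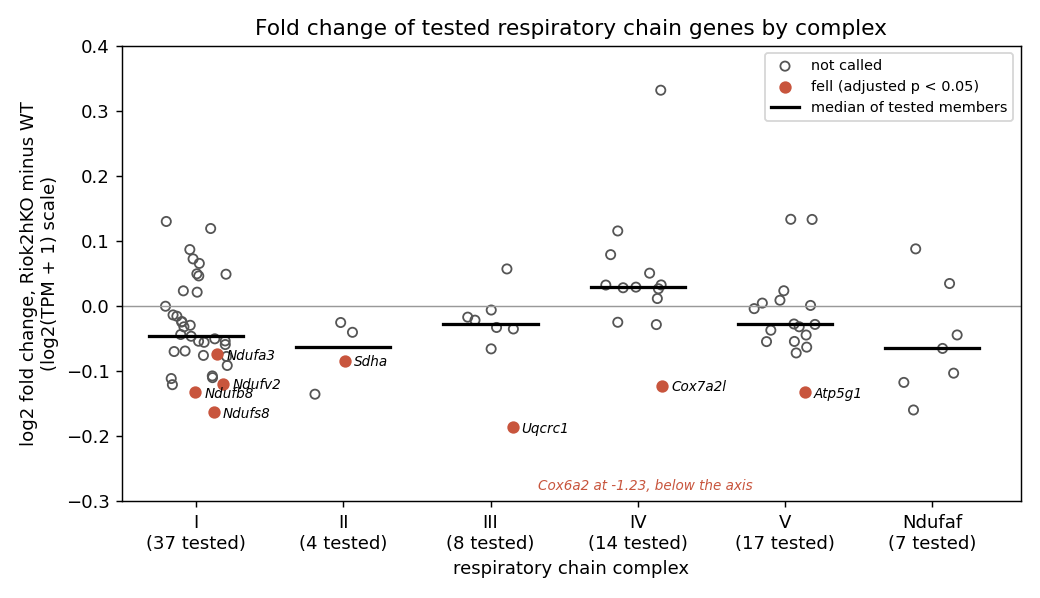
Log2 fold change of each tested respiratory chain gene (Riok2hKO minus WT, on the log2(TPM + 1) scale) by complex. Filled points fell at a limma adjusted p under 0.05, open points did not pass, and bars are medians of the tested members. The medians run from -0.0651 (Ndufaf factors) to 0.0286 (complex IV), and Cox6a2, at -1.23, lies below the axis.

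Complex I is the NADH dehydrogenase. Of its 37 tested members 4 fell, none rose and 33 did not pass. Among all tested genes 7.55% fell, and among those at 100 TPM or more 18.1%. The 7 nuclear core subunits carry the flavin and the iron-sulfur clusters, and 2 of them fell, Ndufs8 and Ndufv2. Of the 30 tested accessory subunits, which surround and stabilize the core, 2 fell, Ndufb8 and Ndufa3. The median log2 fold change was -0.0699 over the core subunits and -0.0378 over the accessory subunits, a difference that was not tested. The values were below 0 in 27 of 37 members, a sign shared by 52% of all tested genes and 62.1% of those at 100 TPM or more.

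Ndufs8, an iron-sulfur subunit that passes electrons towards coenzyme Q (mm10 chromosome 19, 3908863 to 3912774), measured 329.8, 346, 347, 347 and 341 TPM in WT replicates 1 to 5 and 313, 315, 305, 307 and 288 TPM in Riok2hKO. Every Riok2hKO library was below every WT library, and the lowest was Riok2hKO replicate 5. The mean was 89.3% of WT (log2 fold change -0.163, SE 0.0288, adjusted p = 0.00293). Ndufb8, a subunit of the membrane arm (chromosome 19, 44548571 to 44555442), had 524, 498, 526, 519 and 532 TPM in WT and 486, 485, 464, 485 and 451 in Riok2hKO. These groups did not overlap either, and the mean was 91.2% of WT (log2 fold change -0.132, SE 0.0277, adjusted p = 0.00736). Both calls held with each of the 10 libraries left out.

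Ndufa3, an accessory subunit (chromosome 7, 3617347 to 3620165), measured 434 to 452 TPM in WT (median 440.3) and 409.6 to 429 in Riok2hKO (median 419), with no overlap (log2 fold change -0.0739, SE 0.0213, adjusted p = 0.0332). Its call was lost without WT replicate 1, 2 or 3 or Riok2hKO replicate 1, 2, 3 or 4 (adjusted p = 0.0525 to 0.083), and in fits of all 10 libraries with the replicate number as a block (0.0857) or with GC content and transcript length regressed out (0.0755). Ndufv2, a core subunit with an iron-sulfur cluster (chromosome 17, 66078795 to 66101559), had 227, 212, 208, 213 and 202 TPM in WT and 196, 192, 198, 186 and 207 in Riok2hKO. The groups overlapped through Riok2hKO replicate 5 (log2 fold change -0.119, SE 0.0366, adjusted p = 0.0428), and the call was lost without any 1 library other than WT replicate 5 or Riok2hKO replicate 5 (adjusted p = 0.0529 to 0.103). With all 10 libraries the Ndufv2 call was also lost with the replicate block (adjusted p = 0.0901), without a filter on low values (0.0745) and with quantile normalization (0.0583). Ndufv2 overlaps Ankrd12 in the genome, and the libraries carry no strand. With the libraries left out in turn, 2 (without WT replicate 1 or 2 or Riok2hKO replicate 2, 3 or 4) to 6 (without WT replicate 5) members of complex I fell.

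The groups of 6 members of complex I did not overlap, 5 lower and 1 higher in Riok2hKO. Of all tested genes, 5.87% were lower and 8.72% higher without overlap. At 100 TPM or more, 228 of 1531 genes were lower and 122 higher without overlap. The lower ones were the 3 above that did not overlap, the core subunit gene Ndufv1 and Ndufa9. Ndufv1, whose product binds NADH, measured 185 ± 4.41 and 175 ± 3.2 TPM and did not pass (adjusted p = 0.0661). The higher one was Ndufb11, at 177 ± 3.94 and 186 ± 3.16 TPM (adjusted p = 0.0713). Ndufs5 varied most among the tested complex I genes. It ran from 68.1 to 124 TPM in WT and from 65.7 to 123 in Riok2hKO, with means of 93.7 and 94.9 TPM (adjusted p = 0.952).

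Of the 7 Ndufaf genes none changed and 2 had a p under 0.05 before adjustment, as had 3210 of all 10332 tested genes. The median log2 fold change was -0.0651. Ndufaf7, which methylates a core subunit of complex I, measured 37.1 ± 2.17 and 34.1 ± 1.34 TPM (adjusted p = 0.115). Ndufaf5, another enzyme that modifies a core subunit, measured 15.7 ± 1.54 and 13.9 ± 0.706 (adjusted p = 0.127). Ndufaf6 measured 56.4 ± 7.2 and 52.1 ± 1.78 TPM (adjusted p = 0.378) and Ndufaf3 18.8 ± 2.03 and 20.0 ± 0.54 (adjusted p = 0.401). Of the 7 other assembly factor genes of complex I listed for comparison, among them Timmdc1 and Acad9, none changed and none had a p under 0.05 before adjustment. Their values were all below 0, a sign shared by 52% of all tested genes, with a median of -0.0866.

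Complex II, succinate dehydrogenase, also belongs to the citric acid cycle. Sdha, its catalytic flavin subunit (chromosome 13, 74322255 to 74350240), fell to 94.3% of the WT mean. It measured 268, 256, 259, 258 and 255 TPM in WT and 246, 244, 237, 248 and 248 in Riok2hKO, and the groups did not overlap (log2 fold change -0.0841, SE 0.0241, adjusted p = 0.0325). The call was lost without WT replicate 1, 3 or 4 or Riok2hKO replicate 1, 2, 3 or 4 (adjusted p = 0.0517 to 0.0778), and with the replicate block (0.0845). The other subunits did not pass. Sdhb, the iron-sulfur subunit, measured 493 ± 14.4 and 484 ± 7.46 TPM (adjusted p = 0.519). Sdhc, a membrane anchor, measured 88.6 ± 3.33 and 80.7 ± 5.28 (adjusted p = 0.0655), and it passed without WT replicate 3 or Riok2hKO replicate 2 (adjusted p = 0.0471 and 0.0441 in that order). With all 10 libraries Sdhc passed with the replicate block (adjusted p = 0.0409) and with GC content and transcript length regressed out (0.0418). Sdhd, the other anchor, measured 185 ± 12.9 and 179.7 ± 5.8 (adjusted p = 0.577). Its WT mean was raised by WT replicate 1, at 208 TPM where its 4 companions measured 175 to 183, and without that library its log2 fold change was 0.0015.

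Complex III, the cytochrome bc1 complex, held the member with the smallest p. Uqcrc1, a core subunit on the matrix side (chromosome 9, 108936648 to 108949641), measured 658, 627, 651, 636 and 638 TPM in WT and 567, 571, 558, 562 and 563 in Riok2hKO. The Riok2hKO libraries lay close together, and the highest of them was well below the lowest WT library. The mean was 87.8% of WT (log2 fold change -0.187, SE 0.0198, adjusted p = 0.000114). The call held with each library left out, at log2 fold changes from -0.195 to -0.178. The other core genes did not pass. Uqcrc2, whose product pairs with that of Uqcrc1, measured 269.6 ± 3.36 and 258 ± 8.17 TPM with no overlap (adjusted p = 0.109), and Uqcrfs1, the Rieske iron-sulfur protein, 349.5 ± 6.86 and 348 ± 7.66 (adjusted p = 0.891). Among the 5 small subunits none changed. Uqcrh measured 652 ± 22.6 and 678 ± 15.7 TPM (adjusted p = 0.17) and Uqcr10 679 ± 23.2 and 662 ± 21.3 (adjusted p = 0.446). Cyc1, the cytochrome c1 subunit of the same complex, is not reached by the symbol rule and fell from 558 ± 9.17 to 531 ± 8.67 TPM (adjusted p = 0.033). It was named after its values were seen.

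In complex IV, cytochrome c oxidase, 2 of 14 tested members fell, none rose and 12 did not pass. The share that fell was 7.55% over all tested genes and 18.1% over those at 100 TPM or more. Of the 14 values 10 were above 0, with a median of 0.0286 (0.0159 without Riok2hKO replicate 1 and 0.0183 without WT replicate 3). Between libraries of a group, the median log2 deviation of these members from their gene means had an SD of 0.0391. Of all 10332 tested genes 4957 were above 0, and the difference of complex IV from the other complexes was not tested. Cox6a2, the muscle isoform of subunit VIa (chromosome 7, 128205435 to 128206366), had the largest change of all members. It measured 3.91, 4.79, 5.79, 4.11 and 3.69 TPM in WT and 1.52, 1.08, 2.15, 1.02 and 0.96 in Riok2hKO. No Riok2hKO library reached a WT library, and the mean was 30.2% of WT (log2 fold change -1.23, SE 0.144, adjusted p = 0.000207). The log2(TPM + 1) scale understates this difference because the gene is low. Cox6a2 overlaps Itgad, which was listed at 0 in all 10 libraries. Cox6a1, the isoform of the same subunit found in most tissues, was far more abundant and did not pass, at 778 ± 35.1 and 764 ± 25 TPM (adjusted p = 0.654).

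Cox7a2l (chromosome 17, 83501917 to 83514333) has the symbol of a complex IV subunit. Its product has been linked to supercomplexes of complexes III and IV, which were not measured here. Cox7a2l measured 314, 299, 289, 295 and 302 TPM in WT. In Riok2hKO it measured 275, 267, 269.7, 292 and 273 TPM. Only Riok2hKO replicate 4 reached the WT range, and the mean was 91.8% of WT (log2 fold change -0.123, SE 0.0308, adjusted p = 0.0179; at most 0.0454 with any 1 library left out). The related subunit gene Cox7a2 measured 581 ± 19.3 and 594 ± 10.1 TPM (adjusted p = 0.416), and the muscle isoform gene Cox7a1 2.02 ± 0.75 and 2.76 ± 0.721 (adjusted p = 0.212). The nuclear subunits next to the catalytic core did not pass: Cox4i1 measured 1391 ± 23.7 and 1417 ± 40.6 TPM (adjusted p = 0.45) and Cox5a 614 ± 17.5 and 636 ± 18.5 (adjusted p = 0.218). With Ndufa4 moved to complex IV, 2 of 15 members fell, none rose and the median was 0.0281.

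**Figure D3:**
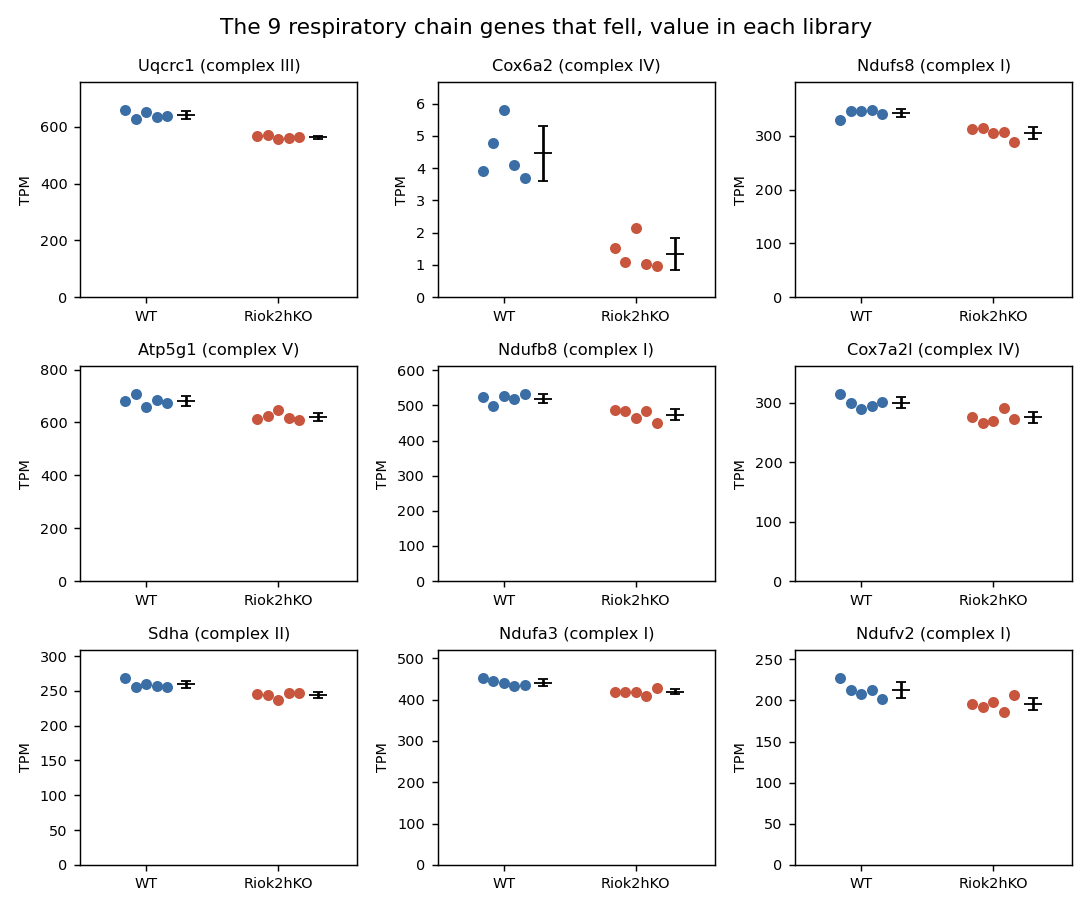
TPM in each library of the 9 respiratory chain genes that fell in Riok2hKO, with the mean and SD of 5 libraries beside the points and each axis starting at 0. Cox6a2 falls to 30.2% of the WT mean at a low level, while the other 8 lie at 87.8% to 95% of it.

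In complex V, the ATP synthase, 1 of 17 tested members fell, none rose and 16 did not pass. Falls made up 7.55% of all tested genes and 18.1% of those at 100 TPM or more. The gene that fell, Atp5g1 (chromosome 11, 96072793 to 96075694), encodes subunit c, which forms the rotating ring in the membrane. Atp5g1, Atp5g2 and Atp5g3 encode the same mature subunit with different import sequences. Atp5g1 measured 680.0, 707, 659, 685 and 674 TPM in WT and 611, 624, 646, 615 and 609 in Riok2hKO. The groups did not overlap, and the mean was 91.2% of WT (log2 fold change -0.132, SE 0.0243, adjusted p = 0.00364), a call that held with each library left out. Atp5g2 measured 849 ± 15.8 and 833 ± 24.2 TPM (adjusted p = 0.453; 95% interval of the log2 fold change -0.0796 to 0.0232). Atp5g3 measured 842 ± 24.1 and 844 ± 13.3 TPM (adjusted p = 0.915, interval -0.0452 to 0.0544). Atp5g1 supplied 28.3% to 29.1% of the c-ring transcripts in WT and 26.2% to 27.6% in Riok2hKO, ranges that do not overlap. This share was computed after the values were seen and was not tested.

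**Figure D4:**
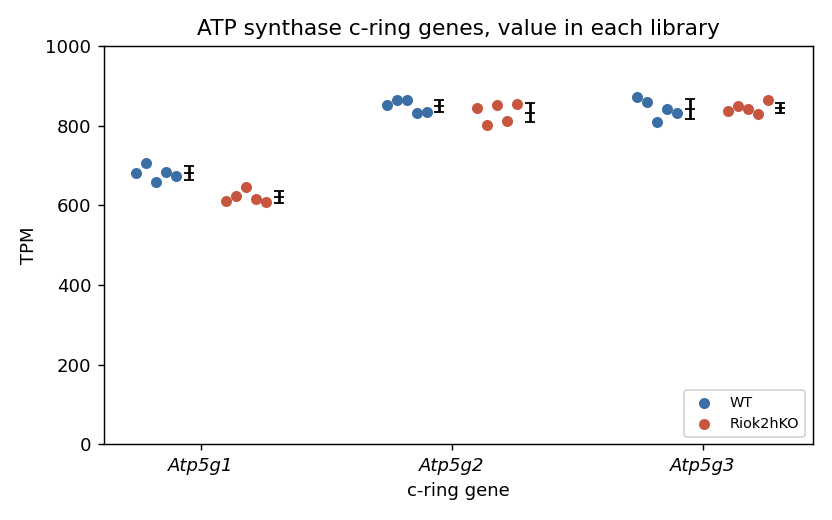
TPM in each library of the ATP synthase c-ring genes, with the mean and SD of 5 libraries beside the points. Atp5g1 lies lower in all 5 Riok2hKO libraries (609 to 646 TPM) than in all 5 WT libraries (659 to 707 TPM), and the points of Atp5g2 and Atp5g3 overlap between the genotypes.

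The 5 genes of the F1 head and central stalk, where ATP is made, did not pass. All had log2 fold changes below 0, from -0.0631 to -0.0318, a sign shared by 62.1% of tested genes at 100 TPM or more. Atp5a1, the alpha subunit, measured 1036 ± 19.9 and 997 ± 9.23 TPM with no overlap (adjusted p = 0.0618). It overlaps Haus1 in the genome, and without strand their reads cannot be told apart there. Atp5b, the beta subunit, measured 2027 ± 47.6 and 1982 ± 11.9 TPM (adjusted p = 0.251) and Atp5c1, the gamma subunit of the central stalk, 674 ± 12.2 and 645 ± 18.3 (adjusted p = 0.0882). In the peripheral stalk, which holds the head still, Atp5o measured 538 ± 9.02 and 512 ± 16.1 TPM (adjusted p = 0.0682), and 2 of the 4 stalk genes were below 0 and 2 above. Atp5c1 passed without Riok2hKO replicate 1 (adjusted p = 0.0333) and Atp5o without Riok2hKO replicate 4 (adjusted p = 0.0446), so that 2 members of complex V fell in those fits. Atp5s and Atp5sl, which share the symbol but encode neither head, stalk nor ring, were low, at 3.51 ± 0.555 and 11.1 ± 1.22 TPM in WT.

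Summed over its members, complex I held 10951 ± 215 TPM in WT and 10651 ± 148 in Riok2hKO, 97.3% of WT, and the ranges overlapped (10698 to 11292 and 10509.7 to 10865). Complex II held 1026 ± 28.9 and 989 ± 5.77 TPM and complex III 4262 ± 79 and 4152 ± 43.2, both without overlap but by narrow gaps. The lowest WT and highest Riok2hKO sums were 1001.97 and 994.88 TPM for complex II and 4199.9 and 4196.3 for complex III. Within complex III, Uqcrc1 alone went from a mean of 642 to 563.9 TPM. Complex V held 11368 ± 190 and 11146 ± 101 TPM, with overlap. The sum of complex IV was 8146 ± 218 and 8247 ± 182 TPM, 101% of WT. WT replicate 1 had the highest sum of its group for each of complexes I to V and the lowest for the Ndufaf factors, and without it the WT means were 10866 TPM for complex I, 1013 for complex II, 4230.3 for complex III, 8064 for complex IV and 11293 for complex V. These sums were not tested.

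**Figure D5:**
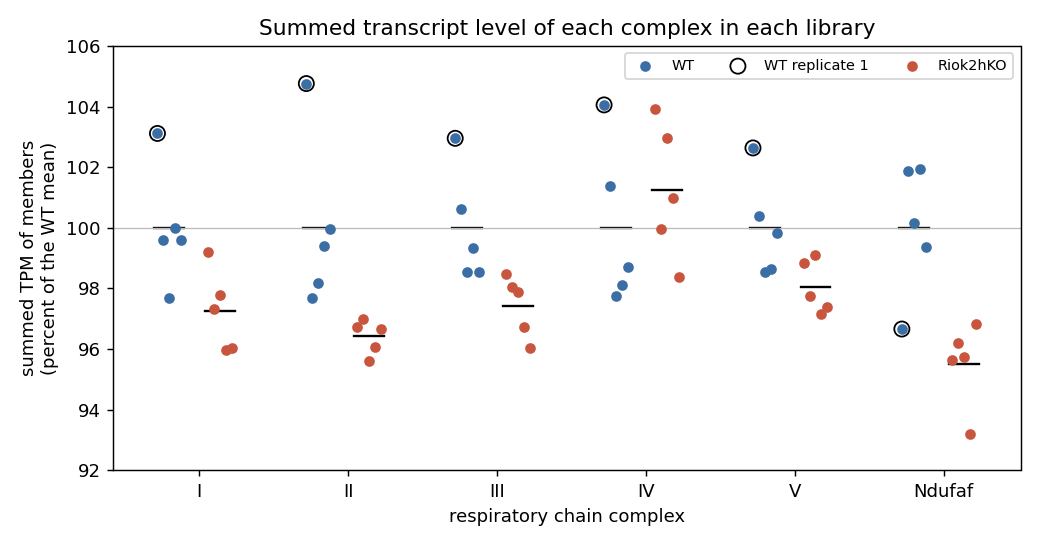
Summed TPM of the members of each complex in each library, as a percent of the WT mean (the axis does not start at 0). Black lines are group means and the ringed point is WT replicate 1. Riok2hKO means lie at 95.5% to 98% of WT for all groups but complex IV, at 101%, and WT replicate 1 is the highest WT library for complexes I to V.

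Members had short transcripts, and the complexes differed in length. The median GENCODE transcript length was 936.5 bases over 86 of the 87 tested members and 2966.5 over 9718 tested genes, with a GC content of 50.2% and 49.9%. The median was 669.5 bases for complex IV, 896.5 for complex V, 955 for complex III, 971 for complex I and 2065.5 for complex II. Over the members, Spearman's rho of the log2 fold change was -0.347 with transcript length and 0.0417 with GC content. Over all tested genes these were 0.182 and -0.0196. The points share libraries, and no p is given. Each length is that of the longest coding transcript, which need not be the one expressed. For Atp5g1 it was 4715 bases, longer than the gene span given above. With each library's dependence on transcript length and GC content regressed out, an alternative chosen after seeing the data, the medians were -0.0476 for complex I and 0.0207 for complex IV, and the median log2 fold change of all tested genes was -0.0293.

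Other genes of the pathway were taken from lists, and no list was tested as a set. Of all tested genes 7.55% fell and 9.58% rose, and of those at 100 TPM or more 18.1% and 8.36%. Of 26 tested assembly factors of complexes II to V, 1 rose (Cox11) and 2 fell (Tmem70 and Cox10), with a median log2 fold change of -0.0563. Cox11, which inserts copper into complex IV, measured 3.89, 8.28, 10.3, 9.17 and 9.42 TPM in WT and 13, 14.7, 15.2, 17 and 16.1 in Riok2hKO. The lowest was WT replicate 1, and all WT libraries were below all Riok2hKO libraries (log2 fold change 0.866, SE 0.189, adjusted p = 0.00899; 0.651 without WT replicate 1, adjusted p = 0.000197). Tmem70, an assembly factor of the ATP synthase, went from 126 ± 5.93 to 113 ± 4 TPM (adjusted p = 0.0235), a call lost without WT replicate 2 or 5 or Riok2hKO replicate 3 or 4 (adjusted p = 0.0517 to 0.0605). Of 13 genes of cytochrome c, cytochrome c1 and coenzyme Q synthesis, 4 fell and none rose. Coq5 went from 63.5 ± 3.35 to 55 ± 1.88 TPM (adjusted p = 0.00728) and Coq6 from 40.5 ± 2.42 to 34.3 ± 3.04 (adjusted p = 0.0222), both enzymes of coenzyme Q synthesis. Coq6 lost its call without WT replicate 5 or Riok2hKO replicate 4 (adjusted p = 0.0525 and 0.0578).

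Of 16 genes of the citric acid cycle and pyruvate dehydrogenase, 4 fell and none rose, with 15 values below 0 and a median of -0.0587. Of all tested genes 7.55% fell and 52% were below 0. At 100 TPM or more these shares were 18.1% and 62.1%, and the difference of this list from them was not tested. Idh3g, a regulatory subunit of isocitrate dehydrogenase, went from 235 ± 10.3 to 213 ± 6.14 TPM (adjusted p = 0.0186), and Pdha1, of pyruvate dehydrogenase, from 158 ± 6.4 to 144 ± 5.17 (adjusted p = 0.0217; 0.0551 without Riok2hKO replicate 3 and 0.0568 without replicate 4). Among 16 genes of mitochondrial membranes and import 2 rose and 2 fell. Tomm70a, an import receptor of the outer membrane, went from 23.8 ± 1.24 to 34.8 ± 3.04 TPM (log2 fold change 0.527, SE 0.0612, adjusted p = 0.000204), and Vdac1, the main outer membrane pore, from 246 ± 16.6 to 284 ± 12.9 (adjusted p = 0.011). Of 13 tested regulators of respiratory genes, 1 rose and none fell. This was Pprc1, a coactivator related to PGC-1 alpha, which went from 38.2 ± 2.38 to 43.2 ± 2.05 TPM (adjusted p = 0.0326) and lost its call without WT replicate 1 or 2 or Riok2hKO replicate 3, 4 or 5 (adjusted p = 0.056 to 0.0749). Nrf1, Gabpa, Yy1 and Tfam were among those that did not pass.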

How the data were processed

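RNA of 10 sorted cell samples was measured by SMART-seq2, a full-length method that does not mark strand, with 38-nucleotide paired reads, per the labels' protocols. The deposited values are TPM, which the authors estimated with RSEM after Bowtie alignment to the mm10 transcriptome, per the labels' protocols. Version 1.2.8 of RSEM is listed in the submitters' processing notes. TPM keeps no depth, so depth is unknown and counting errors are not given, and a rise elsewhere lowers the share left for other transcripts. RSEM divides reads shared by near-identical copies by estimation. Of 23420 rows, 27 had dates in place of symbols (0.107% to 0.114% of the TPM) and were left out. Libraries were grouped by their titles, and the labels leave unsaid whether each is another mouse or culture. The p-values therefore measure only spread among these libraries, possibly technical.

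The test was limma 3.58.1 on log2(TPM + 1) (R 4.3.3; eBayes with trend) for genes that reached 1 TPM in at least 5 libraries. Genotype was the only term, and p-values were adjusted by Benjamini-Hochberg over all tested genes at 0.05. Adjusted p-values are from this two-sided test, and intervals are at 95%. The step was tested on simulated data. Members, lists and tests were chosen with earlier results of these data known. The genes named are Riok2, in each group the 4 members with the smallest p and the one with the highest level, all Sdh and c-ring genes, members below the filter, and up to 2 called genes of each comparison list. Other genes named were chosen after their values were seen. Alternatives changed the pseudocount, filter, scaling, library weights and covariates, used the replicate number as a block or left out each library. Gene coordinates and promoters are from RefSeq (GRCm38.p6), lengths and GC content from GENCODE vM21 (longest coding transcript). Figures were drawn with matplotlib 3.10.9.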

Additional observations from a re-analysis of the deposited data

Results flagged for a closer look

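Values of the named genes and of the complex sums were searched for a library far from the other 4 of its group, by the gap to its nearest neighbour over the range of the group (Dixon's limit for 5 samples, 0.71). Chance alone marks about 1 in 20 groups, and 5 of the 92 groups examined were marked. Both Sdhd (207.5 TPM, the rest of the group 174.9 to 182.6) and Uqcr10 (719.6 TPM, the rest 664 to 673.4) were high in WT replicate 1. Ndufa4 was low in Riok2hKO replicate 4, at 1031.7 TPM against 1066 to 1077. Cox7a1 was high in Riok2hKO replicate 4, at 4.0 TPM against 2.27 to 2.77. Vdac1 was high in Riok2hKO replicate 1, at 306.9 TPM against 275.7 to 282.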

How the results depend on the processing

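Uqcrc1, Cox6a2, Ndufs8, Atp5g1, Ndufb8 and Cox7a2l kept their call and direction under every alternative in which they were tested (Cox6a2 is removed by a filter of 10 TPM), and Riok2 in all 20. Ndufa3, Ndufv2 and Sdha lost theirs with several libraries left out and with the replicate block, Ndufv2 also without a filter and with quantile normalization, and Ndufa3 also with GC content and length regressed out. The count of all genes changed was 1332 (no filter) to 1852 (array weights) in fits of all 10 libraries and 1211 to 1749 with 1 left out (682 to 1027 rose, 529 to 728 fell). Members that rose, 0 as reported, numbered 2 with quantile normalization (Ndufb11 and Ndufc2), 2 with GC content and transcript length regressed out (chosen after seeing the data) and 1 with array weights (Ndufc2), all in complex I, and 0 to 2 with 1 library left out. In complex II 2 members fell with these regressed out, and 0 to 1 with 1 library left out. In complex IV 1 fell under the 10 TPM filter. In complex V 2 fell when ribosomal protein genes were left out or the number of detected genes was a covariate, and 1 to 2 with 1 library left out. Under that covariate 1 Ndufaf gene (Ndufaf5) fell and the complex II median was -0.0944. With 1 library left out, 6 to 11 members and 2 to 6 of complex I fell, 1 of complex III and 2 of complex IV fell, and 0 Ndufaf genes did. The medians then ran from -0.0384 to -0.0139 over all members, -0.0523 to -0.0429 for complex I, -0.0749 to -0.0424 for complex II, -0.0358 to -0.0132 for complex III, 0.0159 to 0.0398 for complex IV, -0.035 to -0.009 for complex V and -0.0978 to -0.0507 for the Ndufaf factors, and the value without WT replicate 1 is the end nearest 0 for all members and complexes II, III and V and the end farthest from 0 for complex IV and the Ndufaf factors. The complex V median, -0.0282 as reported, was also -0.0147 without Riok2hKO replicate 2 and -0.0182 without Riok2hKO replicate 3. The log2 fold change of Riok2 ran from -1.06 to -0.965. Atp5g3, close to 0 as reported, was -0.0024 without ribosomal protein genes, -0.0063 with the covariate, -0.0098 without WT replicate 3 and -0.0039 without Riok2hKO replicate 5, (-0.0098 to 0.0168 with 1 library left out). Sdhd was 0.0015 without WT replicate 1 (-0.06 to 0.0015). The cause of these moves was not tested, beyond the fewer libraries or genes used. Deviations of same-numbered libraries from their group means correlated at -0.0341 to 0.0679 across genes. Libraries with different numbers were not compared in this way, so whether the numbers pair mice, cultures or sorts cannot be told. With the replicate number as a block 8 members fell, 6 of them among the 9 reported, and 1444 genes changed. What TPM cannot show is the number of reads behind Cox6a2 and the other low isoforms.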
